A study of Homo sapiens with 6 samples.

Results

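The genes described here are 8 antiviral restriction factors, MX1, MX2, RSAD2 (viperin), BST2 (tetherin), SAMD9, SAMD9L, SAMHD1 and ISG20, out of 18417 genes with a named probe set. They were chosen by symbol with their measured difference between the arrays labelled siChe-1 and control already known, and each had exactly 1 probe set that carried its symbol alone. The levels and differences of the 8 genes are therefore given as a description, with no p-value. Expression was measured on 6 single-colour Affymetrix whole-transcript arrays, each hybridised with biotin-labelled material from 6 micrograms of total RNA. The RNA came from HCT116, an established line of human colorectal carcinoma cells grown in DMEM with serum and transiently transfected 48 h earlier. The 3 arrays labelled siChe-1 came from cells given a double-stranded RNA oligo that targets Che-1, the product of the gene AATF. The 3 arrays labelled control came from cells given an oligo that targets GFP, so both groups carried a transfected double-stranded RNA. The labels describe no untransfected cells, and do not state that replicate arrays stem from separate cultures, so errors and p-values cover only the spread between these arrays.

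Restriction factors are host proteins that block a step of viral replication inside the infected cell. Many are kept low at rest and are switched on when type I or type III interferon binds its receptor, JAK kinases activate STAT factors, and these enter the nucleus with IRF9 to bind the interferon-stimulated response element in promoters. Double-stranded RNA in the cytoplasm is one of the signals that start interferon production, through the sensors RIG-I (gene RIGI) and MDA5 (gene IFIH1). The 8 genes act at different steps. MX1 and MX2 are dynamin-like GTPases that bind viral nucleoprotein complexes or capsids. Viperin makes a chain-terminating nucleotide from CTP. Tetherin holds budding virions at the cell surface. SAMD9 and SAMD9L act against poxviruses, SAMHD1 degrades deoxynucleoside triphosphates, and ISG20 is an exonuclease that degrades RNA.

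Promoter sequences were examined because interferon-responsive genes often carry the response element close to their start. RefSeq promoter windows (GRCh38.p14, 250 bases before to 50 bases after an annotated start) were found for 7 of the 8 genes, all but MX2, with 10 windows in all. The core of the response element was searched on both strands as GAAA, any 2 bases and GAAA. It was present in at least 1 window of 5 of the 7 genes. It was in 3.57% of all 35116 windows of the RefSeq table, and of all 27305 genes 4.38% had at least 1 window with it. The 250 bases upstream of the start are printed for BST2, SAMD9, RSAD2 and ISG20, to show the match in capitals, and for SAMD9L and SAMHD1, to show windows without it. The windows are chr19:17405631-17405880 (minus strand) for BST2, chr7:93117980-93118229 (minus strand) for SAMD9, chr2:6877527-6877776 (plus strand) for RSAD2, chr15:88638766-88639015 (plus strand) for ISG20, chr7:93148386-93148635 (minus strand) for SAMD9L and chr20:36951709-36951958 (minus strand) for SAMHD1.
BST2: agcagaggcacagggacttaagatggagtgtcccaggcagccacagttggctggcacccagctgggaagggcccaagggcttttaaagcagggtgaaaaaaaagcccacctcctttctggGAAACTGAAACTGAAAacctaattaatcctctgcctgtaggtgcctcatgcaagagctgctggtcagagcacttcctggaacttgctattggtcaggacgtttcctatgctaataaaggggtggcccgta
SAMD9: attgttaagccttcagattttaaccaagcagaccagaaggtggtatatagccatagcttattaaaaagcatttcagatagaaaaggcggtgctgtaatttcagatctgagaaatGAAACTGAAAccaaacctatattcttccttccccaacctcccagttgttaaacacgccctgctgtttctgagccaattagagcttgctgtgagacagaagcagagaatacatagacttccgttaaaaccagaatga
RSAD2: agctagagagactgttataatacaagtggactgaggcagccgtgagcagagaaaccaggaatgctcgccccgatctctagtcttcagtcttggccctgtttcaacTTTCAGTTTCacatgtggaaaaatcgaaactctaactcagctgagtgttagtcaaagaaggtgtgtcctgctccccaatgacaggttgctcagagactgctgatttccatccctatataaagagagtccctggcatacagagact
ISG20: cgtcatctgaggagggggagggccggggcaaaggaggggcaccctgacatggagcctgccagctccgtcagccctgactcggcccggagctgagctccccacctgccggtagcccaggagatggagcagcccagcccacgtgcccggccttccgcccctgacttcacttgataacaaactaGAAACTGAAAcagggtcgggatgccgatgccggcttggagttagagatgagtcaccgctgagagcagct
SAMD9L: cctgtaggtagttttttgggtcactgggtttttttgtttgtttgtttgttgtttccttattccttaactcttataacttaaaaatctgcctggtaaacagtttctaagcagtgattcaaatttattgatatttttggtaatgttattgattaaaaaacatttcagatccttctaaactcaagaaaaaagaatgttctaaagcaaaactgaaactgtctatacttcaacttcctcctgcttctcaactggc
SAMHD1: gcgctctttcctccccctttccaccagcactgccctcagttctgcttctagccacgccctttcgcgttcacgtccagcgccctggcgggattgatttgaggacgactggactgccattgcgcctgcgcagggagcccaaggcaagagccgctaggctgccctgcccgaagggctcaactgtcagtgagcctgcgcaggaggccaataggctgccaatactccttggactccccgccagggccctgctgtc

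In BST2 the capitals are a pair of matches that share 4 bases, starting 130 and 124 bases upstream of the start. The match of SAMD9 began 136 bases upstream, and that of ISG20 began 69 bases upstream. These 3 genes carried the same letters, GAAACTGAAA, on the strand of the gene. RSAD2 has a pair of windows in the table. The match, TTTCAGTTTC, which is GAAACTGAAA on the opposite strand, began 145 bases upstream in the printed one and was not found in the other. MX1 has 3 windows. In the first, GAAACCGAAA began 11 bases downstream of the start, and in the third, TTTCTCTTTC began 196 bases upstream. The gamma-activated sequence core was searched as TTC, any 3 bases and GAA, a pattern that is the same on both strands. This core was found in 2 of the 7 genes, BST2 and MX1. It was in 7.66% of all windows, and 9.38% of all genes had at least 1 window with it. In BST2 it began 136 and 58 bases upstream, and the first of these overlapped the response element. A match is a run of letters, not a shown binding site, and a window with none says only that these letters are not in it. Among the genes of the whole table that limma called lower in the arrays labelled siChe-1 (the 8 left out), 59 of the 378 with a window held the response element core, or 15.6%. The share was 2.99% of 167 genes called higher and 3.78% of 13687 genes not called, given here as counts without a test. For the gamma-activated sequence core it was 14.3% of the same genes called lower, 10.8% of those called higher and 9.03% of those not called.

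**Figure D1:**
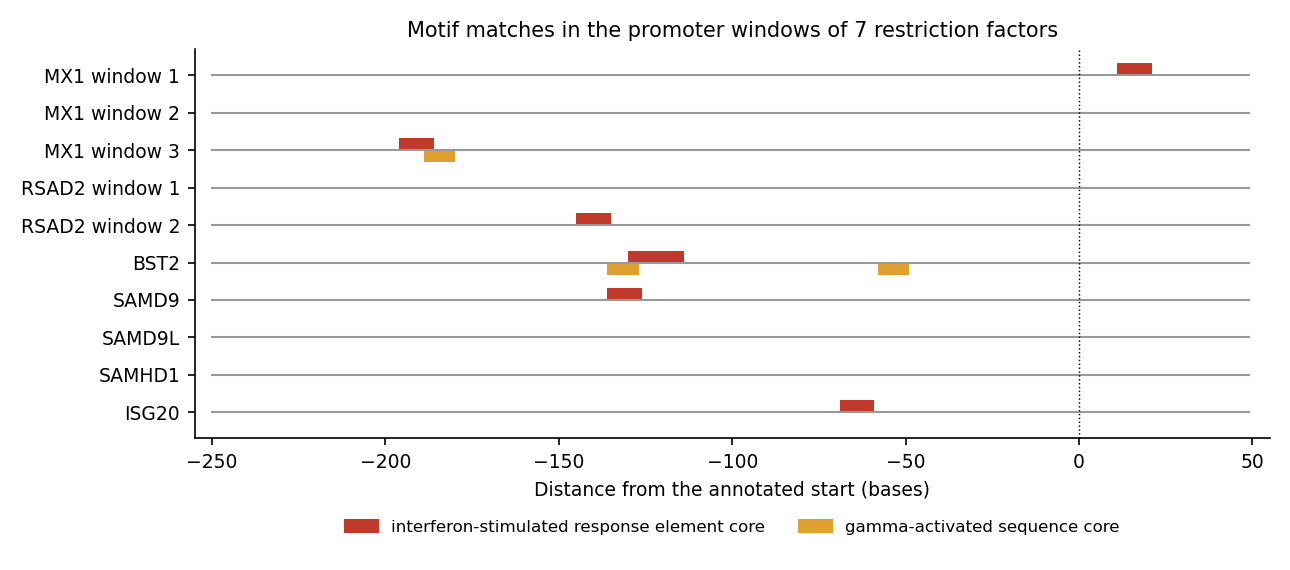
Positions of the 2 motif cores in the 10 promoter windows of 7 restriction factors, from 250 bases before to 50 bases after the annotated start (dotted line). Red blocks are the interferon-stimulated response element core and yellow blocks the gamma-activated sequence core. SAMD9, BST2, RSAD2 and ISG20 have the red block between 145 and 69 bases upstream, and SAMD9L and SAMHD1 have none.

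Values are log2 RMA intensities, and a difference is the mean of the arrays labelled siChe-1 minus the mean of those labelled control. The gene targeted by the oligo did not follow the labels. AATF read 8.53, 8.81 and 8.87 in the arrays labelled siChe-1, against 7.55, 7.75 and 7.55 in those labelled control. Its difference was 1.12 ± 0.13 (moderated SE, limma adjusted p = 0.00122), so AATF was higher where the label names its depletion. The groups are therefore named by their labels throughout, and every direction would turn if the labels were exchanged. Array medians over all 33297 probe sets lay between 4.95 and 5.05. The colon epithelial markers EPCAM (10.1 ± 0.17 in the arrays labelled siChe-1, 10.4 ± 0.31 in those labelled control), KRT8 (12.1 ± 0.12 and 12.5 ± 0.12) and KRT18 (11.7 ± 0.05 and 12.1 ± 0.09, SD, n = 3 each) were bright in both groups. Of the 16 measured markers of this list 1 was called lower, KRT19 (10.65 ± 0.04 and 11.24 ± 0.05, SD, n = 3 each, difference -0.59, limma adjusted p = 0.0171), and none was called higher. Including KRT19, 6 of the 16 had an unadjusted limma p under 0.05. The others were KRT8 (difference -0.39) and KRT18 (-0.44), which were lower, and CDH1 (0.33), CDX1 (0.43) and CLDN3 (0.47), which were higher. VIL1, LGR5, CEACAM5 and CEACAM6 read under 4 in both groups, and KRT20 and MUC2 read under 5 in both. PTPRC, which marks all leukocytes, read 2.46 ± 0.16 in the arrays labelled siChe-1 and 2.41 ± 0.12 in those labelled control (SD, n = 3 each), near the low end of the scale. Markers of other cell types that read higher are named below.

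All 8 restriction factors were lower in the arrays labelled siChe-1, and in all 8 the groups did not overlap. Such a separation with siChe-1 lower was seen in 13.3% of all 18417 genes. Nothing is read from the count of the 8, because they were listed with this comparison known. The differences spanned 1.74-fold for MX1 to 26.9-fold for SAMD9, with a median of -1.65 on the log2 scale, beside 0.0051 over all genes, whose middle 50% lay between -0.15 and 0.15. At least 4-fold lower were 4 of the 8, SAMD9, BST2, RSAD2 and MX2, a size reached by 0.261% of all genes. ISG20, SAMHD1, SAMD9L and MX1 were lower by less. In bulk RNA, fewer cells that make a transcript and less of it per cell cannot be told apart.

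**Figure D2:**
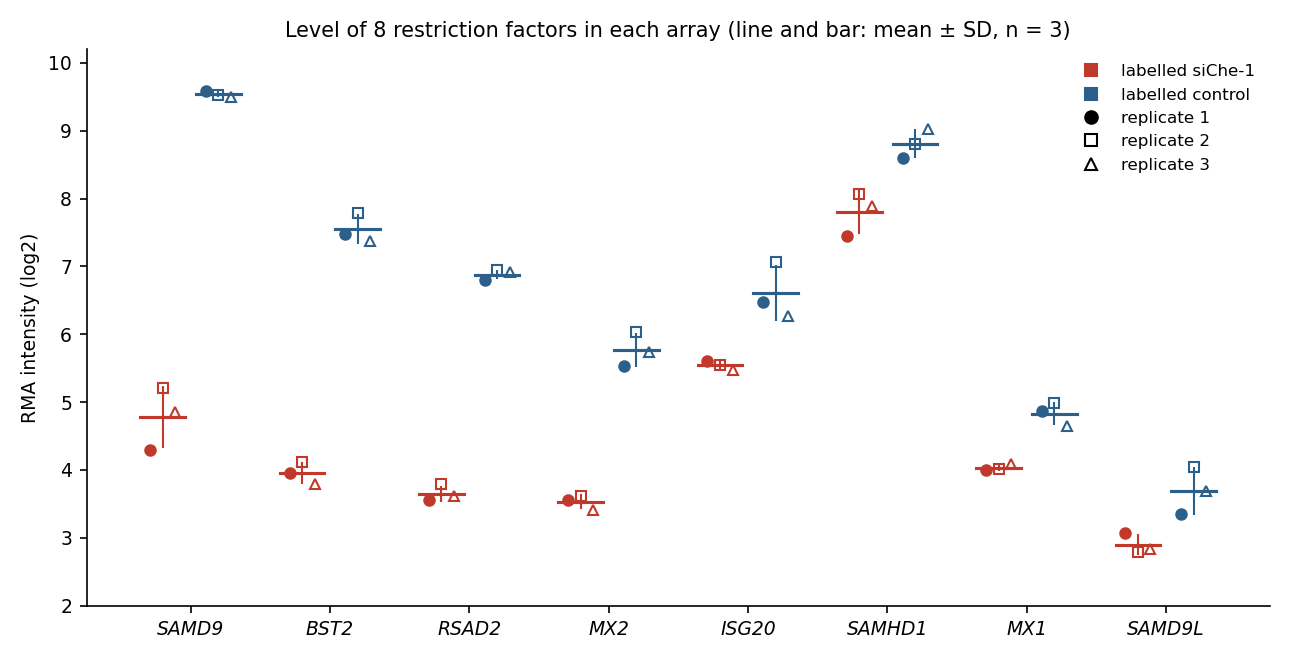
RMA intensity (log2) of the 8 restriction factors in each array, ordered by the size of the difference, with arrays labelled siChe-1 in red left of arrays labelled control in blue. Lines and bars are the mean and SD of 3 arrays. The groups do not overlap for any of the 8, and the gap runs from 4.28 for SAMD9 to 0.28 for SAMD9L.

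MX1 makes MxA, a cytoplasmic GTPase that acts against influenza virus and many other RNA viruses. It read 4.0, 4.01 and 4.09 in the arrays labelled siChe-1, against 4.87, 4.98 and 4.65 in those labelled control. The groups lay 0.55 apart at their nearest arrays, and both stood low on the scale. The difference was -0.80 ± 0.13 (moderated SE here and below). MX2 makes MxB, which sits at nuclear pores and blocks entry of HIV and herpesvirus genomes into the nucleus. It read 3.55, 3.62 and 3.41 in the arrays labelled siChe-1, against 5.53, 6.03 and 5.74 in those labelled control. Every control array was at least 1.92 above the highest array labelled siChe-1. The difference was -2.24 ± 0.15, or 4.73-fold. The MX genes lie side by side on chromosome 21, 11.2 kb apart. MX2 minus MX1 was -0.51 ± 0.16 in the arrays labelled siChe-1 and 0.94 ± 0.24 in those labelled control (SD, n = 3 each), a shift of -1.44. Levels of different probe sets are not on a common scale, and MX1 averaged under 5 in both groups and may be background there, so the shift is given as a value only.

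RSAD2 makes viperin, a radical SAM enzyme of the endoplasmic reticulum and lipid droplets. It read 3.56, 3.79 and 3.61 in the arrays labelled siChe-1, against 6.80, 6.94 and 6.91 in those labelled control. The arrays of each group lay close together, and the groups were 3.0 apart. The difference was -3.23 ± 0.12, or 9.36-fold. BST2 makes tetherin, a membrane protein anchored at both ends. It read 3.96, 4.11 and 3.8 in the arrays labelled siChe-1, against 7.47, 7.79 and 7.38 in those labelled control. The groups were 3.26 apart, many times the range within either group. The difference was -3.59 ± 0.15, or 12.03-fold.

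SAMD9 makes a large cytoplasmic protein that stops poxvirus protein synthesis and, when overactive, slows cell growth. It read 4.29, 5.21 and 4.85 in the arrays labelled siChe-1, against 9.59, 9.53 and 9.49 in those labelled control. Its control arrays lay within 0.10 of each other, while the arrays labelled siChe-1 spread over 0.91, the widest range of the 8, with replicate 1 lowest. The difference was -4.75 ± 0.20, or 26.9-fold, and -4.51 ± 0.13 without siChe-1 replicate 1. SAMD9L, its paralogue, lies 12.1 kb away on chromosome 7. It read 3.07, 2.79 and 2.83 in the arrays labelled siChe-1, against 3.35, 4.04 and 3.69 in those labelled control. It stood at the low end of the scale in both groups, which were 0.28 apart. The difference was -0.80 ± 0.18. SAMD9 minus SAMD9L was 1.89 ± 0.61 in the arrays labelled siChe-1 and 5.84 ± 0.38 in those labelled control (SD, n = 3 each), a shift of -3.95. SAMD9L averaged 2.90 in the arrays labelled siChe-1 and 3.69 in those labelled control and may be background in both, so this shift too is given as a value only.

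SAMHD1 makes a dNTP triphosphohydrolase that starves reverse transcription, and it is phosphorylated by CDK1 and CDK2 in cycling cells. It read 7.45, 8.07 and 7.89 in the arrays labelled siChe-1, against 8.6, 8.8 and 9.03 in those labelled control. Replicate 1 was the lowest array of each group, and the groups were 0.54 apart. The difference was -1.01 ± 0.18, or 2.01-fold, and -0.83 ± 0.14 without siChe-1 replicate 1. ISG20 makes an exonuclease found in nucleoli and other nuclear bodies as well as the cytoplasm. It read 5.61, 5.54 and 5.48 in the arrays labelled siChe-1, against 6.48, 7.07 and 6.27 in those labelled control. Its control arrays spread over 0.79, the widest control range of the 8, with replicate 2 highest. The difference was -1.06 ± 0.19, or 2.09-fold.

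Within a group the 8 genes were not highest in the same array throughout. Control replicate 2 held the highest control value for 6 of the 8, all but SAMD9 and SAMHD1, and the lowest for none. Replicate 2 of the arrays labelled siChe-1 held the highest value of its group for 5 of the 8, and replicate 1 held the lowest for 4. The mean of the 8 levels was 4.44, 4.64 and 4.50 in the arrays labelled siChe-1, against 6.59, 6.90 and 6.64 in those labelled control. The range of these means within a group was smaller than the distance between the groups.

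No detection calls came with the values, and a low one may be background. In the arrays labelled siChe-1 6 of the 8 genes averaged under 5, all but SAMHD1 and ISG20, and in those labelled control 2 did, MX1 and SAMD9L. As a guide to that part of the scale, 25 of 29 markers of leukocytes, fibroblasts and endothelium averaged under 5 in the arrays labelled siChe-1, with a median of 3.51 and the middle 50% between 2.85 and 4.06. Above 5 in those arrays were CD68 (6.68), TYROBP (6.07), COL1A1 (7.41) and ACTA2 (6.25). The levels of MX1, MX2, RSAD2, BST2, SAMD9 and SAMD9L in those arrays are not shown to be above background, and their differences may understate the change. Of the 15 measured leukocyte markers, 1 was called lower (CD68, 6.68 ± 0.28 and 8.23 ± 0.21, SD, n = 3 each, limma adjusted p = 0.000553) and none higher. Including CD68, 3 of the 15 had an unadjusted limma p under 0.05. The mean level of the leukocyte list was 3.48 to 3.61 in the arrays labelled siChe-1 and 3.59 to 3.64 in those labelled control. Of the 14 fibroblast and endothelial markers, limma called none, while 2 had an unadjusted p under 0.05. Their mean level was 3.91 to 4.15 in the arrays labelled siChe-1 and 3.88 to 3.99 in those labelled control. The part of CD68 in the results was not tested.

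Genes that flank the 8 on the chromosome were compared next, as the nearest protein-coding gene with a value on each side. Of the 12 such neighbours that are not among the 8, 2 were called lower, none was called higher and 10 were not called, with a median difference of -0.03. Over all genes 2.52% were called lower and 1.19% higher (limma, adjusted p under 0.05 over 18417 genes). The neighbours called lower were CMPK2 and AEN. CMPK2, a mitochondrial nucleotide kinase on the route to CTP, the substrate of viperin, lies head to head with RSAD2, and the spans of these genes overlap in the RefSeq table. It averaged 5.79 ± 0.21 in the arrays labelled siChe-1 and 6.64 ± 0.38 in those labelled control (SD, n = 3 each), a difference of -0.85 ± 0.19 (limma adjusted p = 0.0394). That call was lost without any single control array or without siChe-1 replicate 2 or 3 (adjusted p 0.0776 to 0.129). AEN lies 3.35 kb from ISG20 and makes a related exonuclease that is induced by p53. It averaged 7.40 ± 0.11 in the arrays labelled siChe-1 and 8.49 ± 0.04 in those labelled control (SD, n = 3 each), a difference of -1.09 ± 0.12 (limma adjusted p = 0.000535). BST2 lies 0.111 kb from MVB12A, whose difference was 0.09 ± 0.14 (limma adjusted p = 0.793). FAM3B and RIPK4 on either side of the MX pair stood at 0.07 and -0.04, and HEPACAM2 beside SAMD9L stood at 0.02. On the other side of SAMD9, CDK6, the cyclin D-dependent kinase, stood at -0.56 (limma adjusted p = 0.0632) with groups that did not overlap. CDK6 was called lower under median centring (adjusted p = 0.0467) and without the dimmest 40% of genes (adjusted p = 0.0499). Of the neighbours not called, FAM3B averaged 2.90 in the arrays labelled siChe-1 and 2.82 in those labelled control, and HEPACAM2 2.46 and 2.44. ACAN (3.33 and 3.36), TLDC2 (4.72 and 4.73) and PLVAP (4.98 and 4.95) also averaged under 5 in both groups. These neighbours may be background, so their small differences, which enter the median, do not show an unchanged level.

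**Figure D3:**
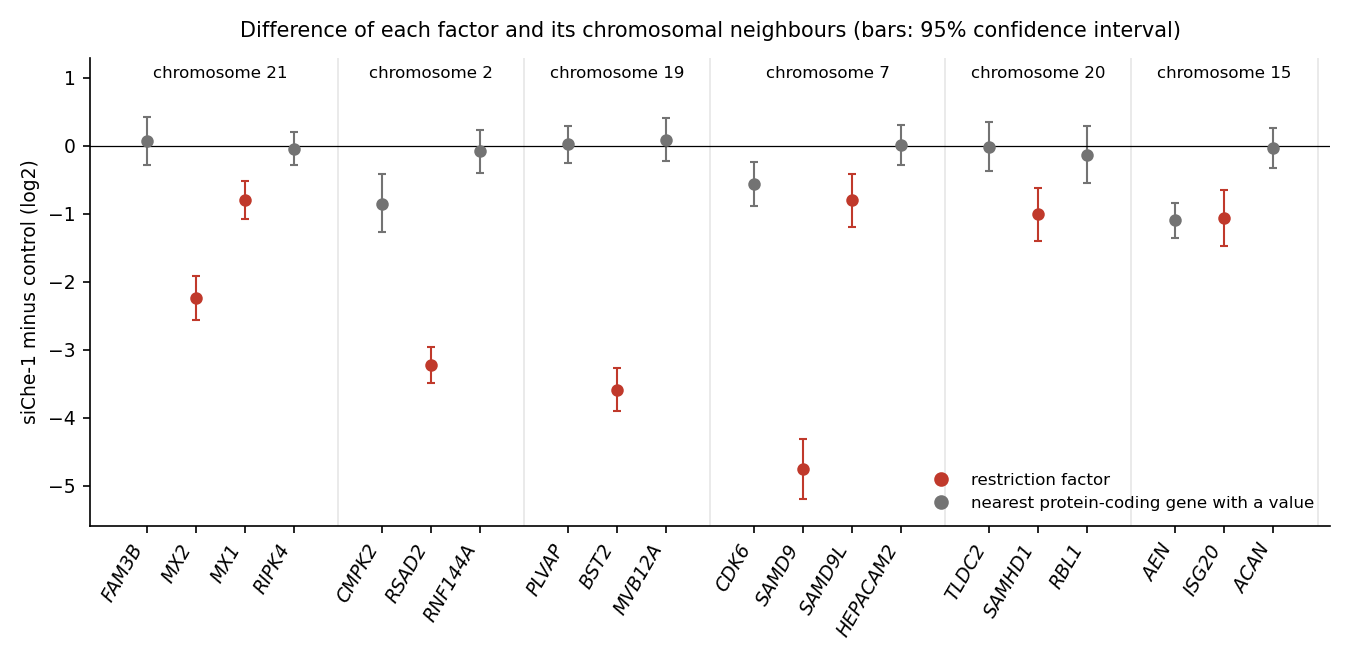
Difference between arrays labelled siChe-1 and arrays labelled control (log2) for the 8 restriction factors in red and the nearest protein-coding genes with a value in grey, in chromosomal order at 6 loci. Bars are 95% confidence intervals from limma. Besides the 8, CMPK2, CDK6 and AEN lie below 0 with their intervals, and the other 9 neighbours have intervals that include 0.

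Other antiviral factors, from a list that leaves out the 8, were lower in the arrays labelled siChe-1 in most cases. Of 39 measured, 25 were called lower, none was called higher and 14 were not called, beside 2.52% lower over all genes, and the list median was -1.37. The largest differences were those of IFI44 (3.14 ± 0.16 in the arrays labelled siChe-1 and 8.69 ± 0.11 in those labelled control), IFIT2 (4.24 ± 0.27 and 9.59 ± 0.03), IFI6 (6.95 ± 0.16 and 11.98 ± 0.20) and IFIT1 (6.78 ± 0.07 and 11.7 ± 0.16, SD, n = 3 each), with limma adjusted p between 1.66e-08 and 2.09e-08. IFIT1 and IFIT2 bind foreign RNA, and IFI6 is a membrane protein of the endoplasmic reticulum and mitochondria that acts against flaviviruses. The list was written with earlier results of these data known. When any 1 array was left out, 22 to 29 were called lower, and without siChe-1 replicate 1 a single gene was called higher.

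Of the interferon signalling genes, 10 of 27 measured were called lower, none was called higher and 17 were not called, beside 2.52% lower and 1.19% higher over all genes, with a list median of -0.22. RIGI, the RNA sensor, averaged 5.34 ± 0.45 in the arrays labelled siChe-1 and 9.64 ± 0.03 in those labelled control (SD, n = 3 each, limma adjusted p = 7.53e-07). IFIH1, the sensor of long double-stranded RNA, averaged 4.68 ± 0.40 in the arrays labelled siChe-1 and 8.41 ± 0.15 in those labelled control (SD, n = 3 each, limma adjusted p = 1.58e-06). USP18, which removes ISG15 and damps the interferon receptor, was 6.39-fold lower, and IRF9 was 3.75-fold lower. The type I and type III interferon receptor genes IFNAR1 (difference -0.19), IFNAR2 (0.01), IFNLR1 (-0.25) and IL10RB (-0.02) were not called. The kinases JAK1 (-0.18), JAK2 (-0.22) and TYK2 (-0.13) were not called either. Of the interferon gamma receptor genes, IFNGR2 was called lower (-0.78, limma adjusted p = 0.0295) and IFNGR1 (0.14) was not called. When any 1 array was left out, 8 to 10 of the 27 were called lower.

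Genes tied by family or biochemistry to a single factor were taken from 5 further lists, each with 0 to 3 called genes, beside 2.52% called lower and 1.19% called higher over all genes. Among dynamin-like relatives of MX, 3 of 15 measured were called lower and none higher, with a median of 0.02. EHD4, an endosomal ATPase, was 1.88-fold lower (limma adjusted p = 0.00163), EHD1 was 1.43-fold lower (adjusted p = 0.0498) and GBP3 was 1.49-fold lower (adjusted p = 0.0349) at 2.59 in the arrays labelled siChe-1 and 3.16 in those labelled control. The call of EHD1 was lost under repeated quantile normalization (adjusted p = 0.0822) and with an intensity trend and robust prior (adjusted p = 0.0646). EHD4 alone kept its call when any 1 array other than siChe-1 replicate 1 was left out. Among proteins described as viperin partners, CMPK2 was the 1 of 12 called, and the median was -0.14. Without siChe-1 replicate 1, 3 of these 12 were called, 2 lower and 1 higher. Of 19 genes of tetherin sorting and its membrane anchor, 1 was called lower, CLTB, a clathrin light chain, at 1.67-fold (limma adjusted p = 0.0127). Without control replicate 2 or 3 none of the 19 was called by limma.

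For SAMHD1, the enzymes of deoxynucleotide supply and the kinases that phosphorylate it were examined. Limma called none of 18, although 2 had an unadjusted p under 0.05, and the median was -0.01. These 2 were CCNE1, cyclin E1, with a difference of -0.39 ± 0.12 (limma adjusted p = 0.121), and DUT, dUTPase, with -0.36 ± 0.15 (limma adjusted p = 0.255). Without siChe-1 replicate 1, CCNE1 was called lower. Among exonucleases related to ISG20, 2 of 14 were called lower, 1 was called higher and 11 were not called, beside 2.52% lower and 1.19% higher over all genes, with a median of -0.24. Beside AEN, ISG20L2, a nucleolar exonuclease of ribosomal RNA processing, was 1.62-fold lower (limma adjusted p = 0.0185). ERI1, which trims histone mRNA and ribosomal RNA, was 1.91-fold higher (8.61 ± 0.38 in the arrays labelled siChe-1 and 7.67 ± 0.13 in those labelled control, SD, n = 3 each, limma adjusted p = 0.0199). AEN alone kept its call in the absence of control replicate 1, 2 or 3 or of siChe-1 replicate 3, and ERI1 lost it in the absence of siChe-1 replicate 2 as well.

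**Figure D4:**
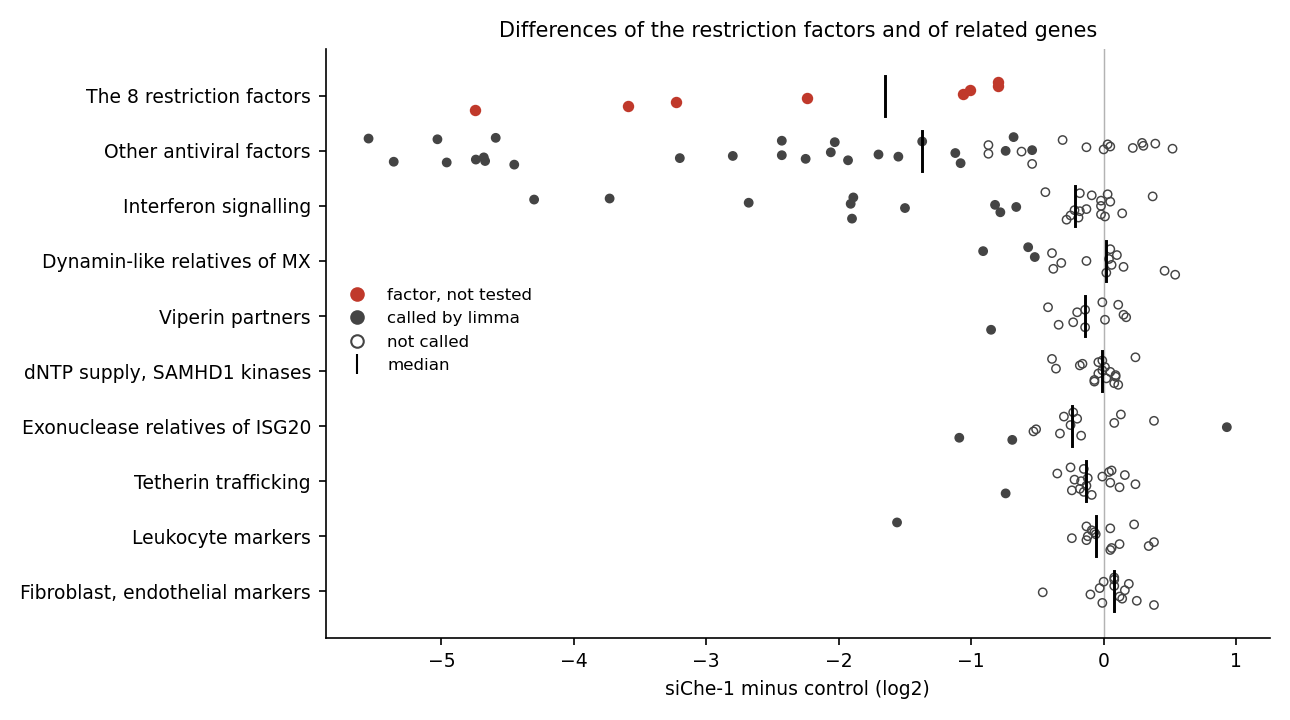
Difference between arrays labelled siChe-1 and arrays labelled control (log2) for each measured gene of 10 lists, with the 8 restriction factors in red at the top. Filled grey points were called by limma at an adjusted p under 0.05, open points were not, and black ticks are list medians. The medians are -1.65 for the 8, -1.37 for the other antiviral factors and between -0.24 and 0.08 for the remaining lists.

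For each of the 8, the gene outside the group with the most similar profile was found as the smallest root mean square difference over the 6 arrays, each gene being set to its own mean. With only 6 arrays in 2 groups, this mostly matches genes of equal difference. The nearest to RSAD2 was OAS3 (0.112 on the log2 scale), an oligoadenylate synthetase, at 6.70 ± 0.08 in the arrays labelled siChe-1 and 9.90 ± 0.14 in those labelled control (SD, n = 3 each). The nearest to MX2 was PARP12 (0.146), to BST2 IFI27 (0.190) and to SAMD9 IFI44L (0.210), all known as interferon-induced. The 4 genes with smaller differences were nearest to genes of other kinds. These were PAK1IP1, a ribosome assembly factor, for MX1 (0.0574), LAMC1, a laminin chain, for SAMHD1 (0.0838), MIR17HG, the host transcript of a microRNA cluster, for SAMD9L (0.118) and CTSL, a lysosomal protease, for ISG20 (0.165).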

How the data were processed

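The authors deposited log2 intensities. Per the submitters' processing notes they were made by RMA with Affymetrix Expression Console, and versions are not given in the sources used here. RMA normalizes between arrays, so a change in total RNA cannot be seen. Of 33297 probe sets, 19460 had 1 symbol in the platform annotation, 1754 had several and 12083 had none. For genes with several, the probe set with the highest mean was used, leaving 18417 genes. Identifiers of 19429 probe sets were found in the RefSeq gene table (GRCh38.p14). There were 0 value columns of no sample.

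The comparison of siChe-1 minus control used limma 3.58.1 under R 4.3.3 (lmFit, eBayes, two-sided, no covariate, no filter), with Benjamini-Hochberg adjustment over all genes and a threshold of 0.05. No set test was run. Precision is limited by the small number of arrays. The 8 genes and the lists were chosen with earlier results of these data known. Named beside the 8 were AATF, the nearest profile and flanking genes of each, and in each list other than the marker lists up to 4 called genes with the largest difference (all where 5 or fewer were called, the 2 with the smallest p where none was). CD68, PTPRC, TYROBP, COL1A1, ACTA2, EPCAM, CDH1, KRT8, KRT18, KRT19, KRT20, CDX1, CLDN3, VIL1, LGR5, CEACAM5, CEACAM6 and MUC2 come from the marker lists, named after their values were seen. The receptor and JAK kinase genes of the interferon signalling list were also named after their values were seen. Listed genes lacking a probe set with 1 symbol are not reported here. Alternatives were repeated quantile normalization, median centring, leaving out the dimmest 40% of genes, averaging probe sets, an intensity trend with a robust prior, the replicate number as a block, and leaving out each array.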

Additional observations from a re-analysis of the deposited data

How the results depend on the processing

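The difference of each of the 8 genes stayed below 0 in all 93 recomputations that gave a value. It ran from -4.96 to -4.51 for SAMD9, -0.97 to -0.62 for SAMD9L and -1.23 to -0.83 for ISG20. Averaging probe sets, the intensity trend with a robust prior and the replicate block could not move these differences. Each gene had 1 probe set, and in this balanced design the prior and the block change only the error. Leaving out the dimmest 40% of genes removed MX1, MX2 and SAMD9L, and the median of the 5 that remained was -3.23. The replicate block raised the genes called over all genes to 1145, against 685. Over all genes, deviations from the group means correlated at 0.230, 0.0641 and -0.0445 between same-numbered arrays 1, 2 and 3. Between arrays of different number the values ran from -0.235 to 0.158. Deviations within so small a group depend on each other, so these values cannot decide whether same-numbered arrays share a culture. The labels do not say so. Under the block no list count moved by over 1.5 times. Leaving out 1 array at a time gave 272 to 1565 calls over all genes, the most without siChe-1 replicate 1. The same settings gave 1 to 3 calls among the dynamin-like relatives, 0 to 3 among the viperin partners, 0 to 1 among the deoxynucleotide genes, 1 to 3 among the exonucleases and 0 to 1 among the tetherin genes. These fits have fewer samples. Even so, the fit without siChe-1 replicate 1 gave 1565 calls over all genes, above the 685 with all arrays. Leaving out any other array gave 272 to 462. What sets siChe-1 replicate 1 apart was not tested. With repeated quantile normalization CMPK2 was not called (adjusted p = 0.0502), leaving 0 calls among the viperin partners, and EHD1 was not called either (adjusted p = 0.0822). CDK6, not called in the fit reported, was called lower under the block (adjusted p = 0.0283). Background correction was not varied, and whether low signal limits the differences of the 6 genes that averaged under 5 was not tested.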
